A study of Mus musculus with 15 samples.

Results

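Metallothionein and zinc transport genes were followed in RAW264.7 cells, an Abelson virus-transformed line of mouse macrophages, after exposure to 4 kinds of silica particle. The set was chosen by gene symbol and held 7 of the 13342 genes whose counts were deposited. These were the metallothionein genes Mt1 and Mt2, the zinc-sensing transcription factor gene Mtf1, the zinc exporter gene Slc30a1, and the zinc importer genes Slc39a1, Slc39a6 and Slc39a10. All 7 passed the filter on low counts, as did 12798 genes in all.

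Metallothioneins are small cysteine-rich proteins that bind zinc, copper and cadmium, and they buffer free zinc in the cytosol. When free zinc rises, MTF-1 binds metal response elements in the promoters of metallothionein genes and of Slc30a1 and raises their transcription. ZIP proteins, encoded by the Slc39a genes, carry zinc into the cytosol, and ZnT proteins, encoded by the Slc30a genes, carry it out or into vesicles. In macrophages these genes take part in keeping zinc and copper from, or turning them against, ingested microbes.

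RNA was sequenced in 15 libraries, 3 from each of 5 groups of RAW264.7 cells with no other genetic change named in the labels. Control cells received no particles. The nonporous particles, made of Stober silica, had a nominal size of 50 nm (Stober50) and 500 nm (Stober500). Both mesoporous particles measured 500 nm, either bare (MSN500) or carrying polyethylene glycol (MSN-PEG500). The dosage labels refer each particle to 0.5 of its LC50 and give 13.1 µg/ml for Stober50, 16.8 µg/ml for Stober500, 111.8 µg/ml for MSN500 and 84 µg/ml for MSN-PEG500. They do not settle whether these values are the concentrations used or the LC50 values. Exposure is given as 24 h in one protocol and 4 h in another, and all cells were at passages 6 to 14. Each comparison between groups changes the dosage along with the particle, and their parts cannot be told apart.

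Library totals ran from 17683003 to 27253289 counts. The first principal component of log2 values carried 49.6% of the variance and separated the 6 mesoporous libraries from the other 9. On the second component the library MSN-PEG500 replicate 3 lay at -19.1, away from -4.85 and -3.48 for its group mates. Levels are given as CPM, which scales each library to one common total after multiplying its own total by its TMM factor, a factor that aligns the bulk of genes between libraries. Of 9 macrophage marker symbols 8 were in the table, with a summed level of 15311 to 18823 CPM. The summed level was 0.374 to 1.82 CPM for the fibroblast markers, of which only Pdgfrb was in the table, and 12.5 to 17.7 CPM for the lymphocyte markers Lck and Ighm. None of 4 epithelial markers was in the table. In such bulk libraries, a smaller share of cells expressing a gene and less of its RNA per cell cannot be told apart.

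The start regions of Mt1, Mt2 and Slc30a1 are shown because these are the members known as direct MTF-1 targets whose RNA rose with both mesoporous particles. Each run gives the 250 bases before the RefSeq start on the plus strand (build GRCm38.p6), at chr8:94178839-94179088 for Mt1, chr8:94172368-94172617 for Mt2 and chr1:191906531-191906780 for Slc30a1. Capitals mark the core of the metal response element, TGCACNC or TGCGCNC, on either strand.
Mt1: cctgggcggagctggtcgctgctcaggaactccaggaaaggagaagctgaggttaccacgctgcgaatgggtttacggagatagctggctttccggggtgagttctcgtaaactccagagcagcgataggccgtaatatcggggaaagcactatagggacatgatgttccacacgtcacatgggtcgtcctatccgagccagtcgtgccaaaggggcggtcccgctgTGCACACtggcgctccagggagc
Mt2: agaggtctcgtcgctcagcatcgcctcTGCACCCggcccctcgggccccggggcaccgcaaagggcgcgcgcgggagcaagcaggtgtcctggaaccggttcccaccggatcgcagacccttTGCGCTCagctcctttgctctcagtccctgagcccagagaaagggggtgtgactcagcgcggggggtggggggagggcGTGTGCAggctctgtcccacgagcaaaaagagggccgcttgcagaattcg
Slc30a1: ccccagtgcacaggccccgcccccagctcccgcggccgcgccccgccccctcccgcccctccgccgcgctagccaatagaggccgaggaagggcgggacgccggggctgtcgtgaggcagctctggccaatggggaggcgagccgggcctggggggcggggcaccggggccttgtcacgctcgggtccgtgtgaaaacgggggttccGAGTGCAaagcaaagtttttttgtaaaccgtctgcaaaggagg

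The Mt2 window held 3 such cores, at -223, -128 and -50 from the start, and Mt1 and Slc30a1 held 1 each, at -23 and -43. Of 32817 RefSeq promoter windows of that length, 21.4% held at least 1 core and 1.26% held at least 3. These counts depend on the window: with the first 50 bases after the start included, 300 bases in all, Mt2 held 4, Mt1 3 and Slc30a1 2, and 1.97% of all windows held at least 3. The windows of Mtf1 and Slc39a1 and both windows of Slc39a10 held none. The core of the antioxidant response element, TGACNNNGC on either strand, occurred once in Mt2 (at -79), Slc30a1 (at -82) and Slc39a1 (at -63), and in 10.2% of all windows, with no overlap with a metal response core in these genes. A match of letters is a description and not a binding site. RefSeq promoter windows were matched for 6 of the 7 members. GENCODE lists later Mt1 starts at 94179211 and 94179241 and later Mt2 starts at 94172664 and 94172860. The 250-base windows of Mt1 and Mt2 end before these later starts, at 94179088 and 94172617. The added 50 bases do not reach the later Mt1 starts or the Mt2 start at 94172860. The bases directly before those starts were not searched, so the counts of cores hold only for the RefSeq starts.

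Mt1 and Mt2 were higher with both mesoporous particles than in control cells, Mt2 by the larger fold. Mt1 (ENSMUSG00000031765) encodes metallothionein 1 and is protein-coding, with positions 94179089 to 94180325 on the plus strand of mouse chromosome 8 (GRCm38). Its level in the 3 libraries was 127, 141 and 129 CPM in control, 150, 151 and 145 CPM in Stober50, and 142, 150 and 125 CPM in Stober500. It was 229, 214 and 218 CPM in MSN500 and 192, 193 and 166 CPM in MSN-PEG500. Every mesoporous library lay above every control and Stober library, and the lowest MSN500 library lay above the highest MSN-PEG500 library. The group means were 132 ± 7.44 CPM in control, 149 ± 3.69 in Stober50, 139 ± 12.4 in Stober500, 220.5 ± 7.81 in MSN500 and 183 ± 15.5 in MSN-PEG500 (SD, n = 3 each). Mt1 rose 1.66-fold with MSN500 against control, a log2 change of 0.73 ± 0.06 (SE), with an adjusted p of 2.28e-09 in the quasi-likelihood F-test of edgeR, adjusted by Benjamini and Hochberg over all genes, the test behind every adjusted p given here. With MSN-PEG500 it rose by 0.47 ± 0.06 (adjusted p = 2.54e-06), and by 0.54 without MSN-PEG500 replicate 3.

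Mt2 (ENSMUSG00000031762), the neighbouring gene on the same strand, encodes metallothionein 2, is protein-coding and spans positions 94172618 to 94173567 of chromosome 8. Its level was 29.6, 33.9 and 35.7 CPM in control, 37.2, 35.0 and 40.7 CPM in Stober50, and 36.6, 46.4 and 35.3 CPM in Stober500. It was 71.6, 71.6 and 76.8 CPM in MSN500 and 60.04, 58.9 and 62.1 CPM in MSN-PEG500. The mesoporous libraries again lay above all others, and the 2 mesoporous groups did not overlap. Mt2 was at 33.0 ± 3.16 CPM in control and 73.3 ± 3.03 CPM in MSN500 (SD, n = 3 each), a 2.23-fold rise with a log2 change of 1.15 ± 0.09 (SE, adjusted p = 3.48e-09). It was the only member to pass 2-fold, and only in this comparison with control. In MSN-PEG500 it was at 60.3 ± 1.61 CPM, with a log2 change of 0.87 ± 0.09 against control (adjusted p = 2.74e-07). Most of Mt2, 432 exonic bases beside a deposited exonic length of 556, overlaps the antisense gene Gm45774, which had no counts of its own among those deposited. Reads of the pair cannot be told apart because no source used here says whether counting took strand into account.

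With the nonporous particles neither metallothionein gene passed the test. The log2 change against control was 0.17 ± 0.06 for Mt1 (adjusted p = 0.101) and 0.19 ± 0.09 for Mt2 (adjusted p = 0.216) with Stober50. It was 0.07 ± 0.06 for Mt1 (adjusted p = 0.691) and 0.26 ± 0.09 for Mt2 (adjusted p = 0.238) with Stober500. The 3 Stober50 libraries of Mt1 lay above the 3 control libraries, whereas the other 3 of these pairs of groups overlapped. For Mt1 the 95% interval of the log2 change ran from 0.04 to 0.29 with Stober50 and from -0.06 to 0.20 with Stober500, below the 0.61 at which its interval with MSN500 began. For Mt2 it ran from 0.004 to 0.38 with Stober50 and from 0.07 to 0.45 with Stober500, and with MSN500 it began at 0.97. Both of these nonporous Mt2 intervals left out no change, but the intervals are not adjusted for the number of genes tested. The MSN500 and Stober500 particles share a nominal size but differ in pores and in labelled dosage (111.8 and 16.8 µg/ml), which cannot be told apart. Against Stober500 the log2 change with MSN500 was 0.66 for Mt1 (adjusted p = 1.14e-08) and 0.89 for Mt2 (adjusted p = 8.64e-08).

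MSN-PEG500 gave lower metallothionein levels than MSN500. Mt1 fell by 0.26 on the log2 scale (SE 0.06, adjusted p = 0.00981) and Mt2 fell by 0.28 (SE 0.08, adjusted p = 0.0427) between MSN500 and MSN-PEG500. Both calls depended on single libraries. Mt1 had an adjusted p of 0.0562 without MSN500 replicate 1, and Mt2 lost its call without any 1 of the 6 libraries. Mt1 and Mt2 are short genes, with 540 and 556 exonic bases, and the 390 tested genes with 400 to 700 exonic bases, a range set after seeing the data, had a median log2 change of -0.11 in this comparison, with 31 fallen and 2 risen. The part of transcript length in the difference was not tested. In MSN500 against control the same 390 genes had a median log2 change of 0.05.

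**Figure D1:**
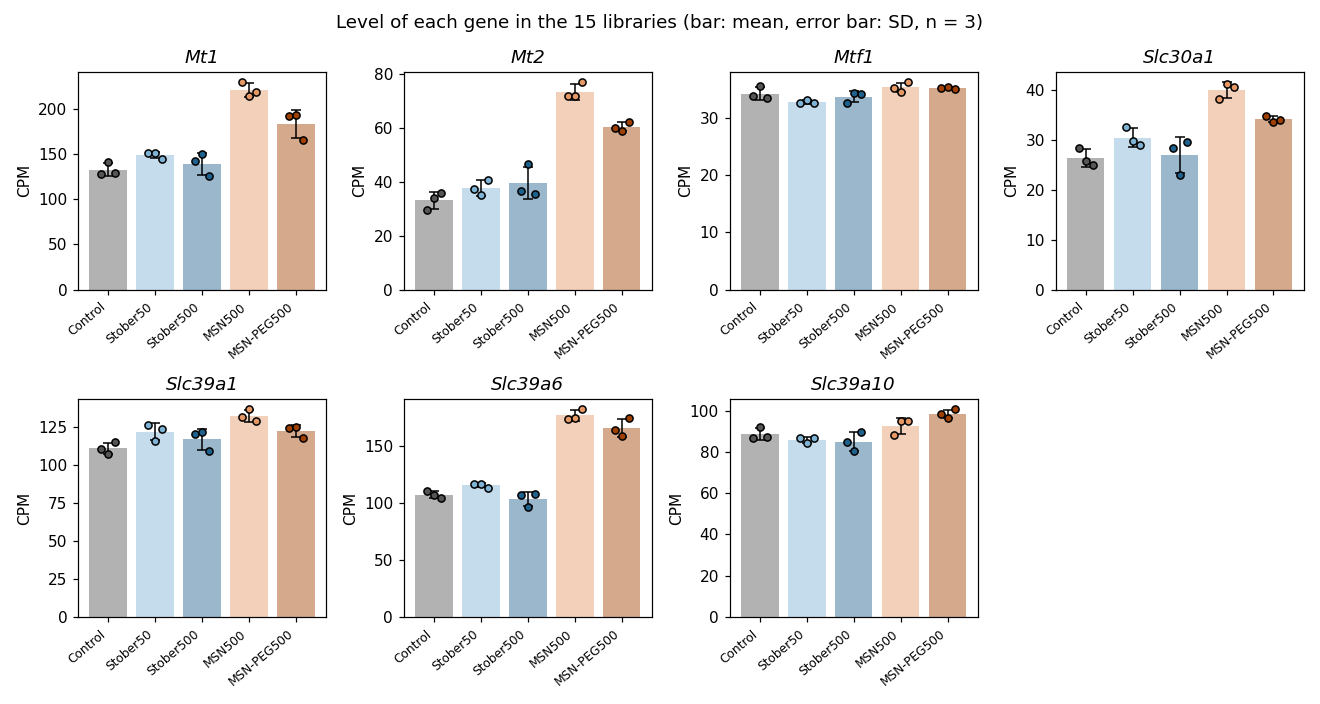
Level of each of the 7 genes in CPM (vertical axis, from 0) in the 5 groups, with 1 point per library, bars at the group mean and error bars of 1 SD (n = 3). Mt1, Mt2, Slc30a1, Slc39a1 and Slc39a6 show mesoporous libraries above all control libraries, with Mt2 at 73.3 CPM in MSN500 against 33.0 CPM in control, while Mtf1 stays between 32.6 and 36.2 CPM.

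The balance of the pair was also read within each library, where the scaling of the library cancels. Mt2 counts were 23.2%, 24.0% and 27.6% of Mt1 counts in control, 24.7%, 23.1% and 28.1% in Stober50 and 25.8%, 31.0% and 28.1% in Stober500. They were 31.2%, 33.5% and 35.2% in MSN500 and 31.2%, 30.6% and 37.5% in MSN-PEG500. All 6 mesoporous values lay above the 3 control values, while both Stober groups overlapped control. The mean share was 24.97% ± 2.35 in control, 33.3% ± 1.98 in MSN500 and 33.1% ± 3.81 in MSN-PEG500 (SD, n = 3 each). The log2 difference from control was 0.42 with MSN500 and 0.40 with MSN-PEG500, each with p = 0.1 in a two-sided exact permutation test, the smallest p that 3 against 3 libraries allow, so neither could reach 0.05. For Stober50 and Stober500 the differences were 0.02 (exact p = 0.8) and 0.18 (exact p = 0.2). The Mt2 counts in these shares may include reads of the overlapping antisense gene Gm45774.

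**Figure D2:**
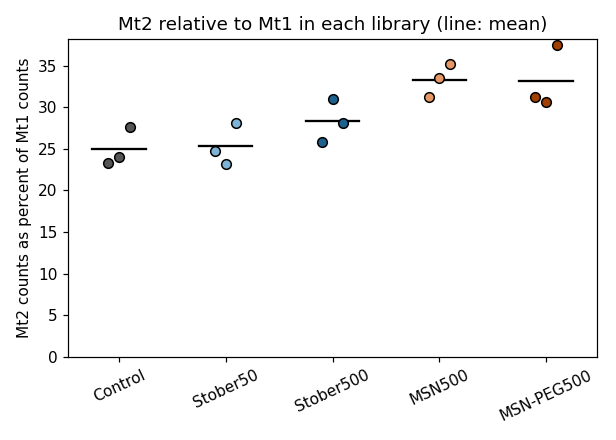
Mt2 counts as a percent of Mt1 counts (vertical axis, from 0) in each library of the 5 groups, with lines at the group means. The means are 24.97% in control, 33.3% in MSN500 and 33.1% in MSN-PEG500, and the mesoporous points all lie above the control points.

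Mtf1, which encodes the transcription factor MTF-1, did not pass the test in any comparison. Mtf1 (ENSMUSG00000028890) is protein-coding, with positions 124802104 to 124849800 on the plus strand of chromosome 4. Its level was 33.8, 35.6 and 33.4 CPM in control, 32.7, 33.2 and 32.6 CPM in Stober50, and 32.7, 34.3 and 34.2 CPM in Stober500. It was 35.2, 34.5 and 36.2 CPM in MSN500 and 35.2, 35.3 and 35.0 CPM in MSN-PEG500. Both mesoporous groups overlapped control, while every mesoporous library lay above every Stober library. For MSN500 over Stober50 the log2 change was 0.11, with a 95% interval from 0.007 to 0.21, and did not pass (adjusted p = 0.0919). The 5 groups together gave an adjusted p of 0.262. The log2 change against control was 0.04 with each mesoporous particle, with a 95% interval from -0.06 to 0.15 for MSN500 and from -0.07 to 0.14 for MSN-PEG500. With library totals in place of TMM factors, a setting added after seeing the data, these values turned to -0.02 and -0.02. Mtf1 shares 721 exonic bases with 1110065P20Rik on the opposite strand, which had 5695 counts over all libraries.

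Slc30a1, the ZnT1 exporter gene whose product moves zinc out across the plasma membrane, rose with both mesoporous particles. Slc30a1 (ENSMUSG00000037434) is protein-coding, with positions 191906767 to 191913247 on the plus strand of chromosome 1. Its level was 28.5, 25.9 and 24.98 CPM in control, 32.6, 29.9 and 29.0 CPM in Stober50, and 28.5, 23.0 and 29.7 CPM in Stober500. It was 38.4, 41.3 and 40.6 CPM in MSN500 and 34.9, 33.7 and 34.0 CPM in MSN-PEG500. The 5 groups formed 3 tiers with no overlap between the mesoporous groups or between these and the rest. Against control it rose 1.51-fold with MSN500, a log2 change of 0.60 ± 0.07 (SE, adjusted p = 1.72e-07), from a mean of 26.4 ± 1.83 to 40.1 ± 1.54 CPM (SD, n = 3 each). With MSN-PEG500 the mean was 34.2 ± 0.622 CPM and the log2 change 0.37 ± 0.07 (adjusted p = 0.000297). The change was 0.20 ± 0.07 with Stober50 (adjusted p = 0.0919) and 0.03 ± 0.07 with Stober500 (adjusted p = 0.918). Between MSN500 and MSN-PEG500 the log2 value fell by 0.23 (SE 0.07, adjusted p = 0.0462), a call that was lost without any 1 of the 6 libraries. Slc30a1 shares 468 exonic bases with the antisense gene 1700034H15Rik, which had 212 counts over all libraries.

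Slc39a6 showed the smallest adjusted p of the set in each comparison of a mesoporous group with control or with a nonporous particle. It encodes ZIP6, a zinc importer that can pair with ZIP10. Slc39a6 (ENSMUSG00000024270) is protein-coding, with positions 24579881 to 24603817 on the minus strand of chromosome 18. Its level was 110.3, 107 and 105 CPM in control, 117, 117 and 113 CPM in Stober50, and 107, 96.8 and 108 CPM in Stober500. It was 174, 175 and 182 CPM in MSN500 and 164, 159 and 175 CPM in MSN-PEG500. The 6 mesoporous libraries lay far above the other 9, and the mesoporous groups overlapped each other. The mean rose from 107 ± 2.78 CPM in control to 177 ± 4.55 CPM with MSN500 and 166 ± 7.98 CPM with MSN-PEG500 (SD, n = 3 each). The log2 changes were 0.72 ± 0.04 (SE, adjusted p = 2.84e-13) and 0.63 ± 0.04 (adjusted p = 7.37e-12). The difference between the mesoporous particles, -0.09 with a 95% interval from -0.18 to -0.004, did not pass (adjusted p = 0.193). Slc39a6 was also the member nearest to a call between the nonporous particles, at a log2 change of 0.16 ± 0.04 for Stober50 over Stober500 (adjusted p = 0.0633).

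Slc39a1, which encodes the plasma membrane importer ZIP1, changed by less. Slc39a1 (ENSMUSG00000052310) is protein-coding, with positions 90248172 to 90253612 on the plus strand of chromosome 3. Its level was 110, 107 and 115 CPM in control, 126, 115 and 123 CPM in Stober50, and 120, 122 and 109 CPM in Stober500. It was 131, 136 and 128 CPM in MSN500 and 124, 125 and 118 CPM in MSN-PEG500. MSN500 lay above every other group without overlap, and the other particle groups overlapped one another. It rose with MSN500 by 0.25 ± 0.05 on the log2 scale (SE, adjusted p = 6.21e-05), from a mean of 111 ± 3.81 to 132 ± 3.97 CPM (SD, n = 3 each). With MSN-PEG500 the change was 0.14 ± 0.05 (adjusted p = 0.0168), a call lost without control replicate 2 (adjusted p = 0.0614), with upper quartile factors (adjusted p = 0.0589) and with library totals (adjusted p = 0.146). With Stober50 it was 0.14 ± 0.05 (adjusted p = 0.069), nearly the same size. In the authors' deposited table, Slc39a1 was the only member with an exon score above 0, at 5.83 for MSN-PEG500 against control, which does not reach an adjusted p of 0.05.

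Slc39a10, which encodes the importer ZIP10 and is known in mouse as a gene that MTF-1 represses, rose with MSN-PEG500 and did not pass with MSN500. Slc39a10 (ENSMUSG00000025986) is protein-coding, with positions 46807544 to 46854046 on the minus strand of chromosome 1. Its level was 87.0, 92.1 and 87.3 CPM in control, 86.7, 84.3 and 86.9 CPM in Stober50, and 84.9, 80.7 and 89.7 CPM in Stober500. It was 88.3, 94.9 and 95.3 CPM in MSN500 and 98.6, 96.8 and 101 CPM in MSN-PEG500. The MSN-PEG500 libraries lay above all others, and MSN500 overlapped control. The log2 change against control was 0.15 ± 0.04 with MSN-PEG500 (SE, adjusted p = 0.00818), lost with library totals (adjusted p = 0.0848), and 0.06 ± 0.04 with MSN500 (adjusted p = 0.25, 95% interval -0.03 to 0.16). The latter turned to -0.003 with library totals. The difference between the mesoporous particles themselves, 0.09 with a 95% interval from -0.003 to 0.18, did not pass (adjusted p = 0.236), so the 2 particles were not shown to differ for this gene.

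**Figure D3:**
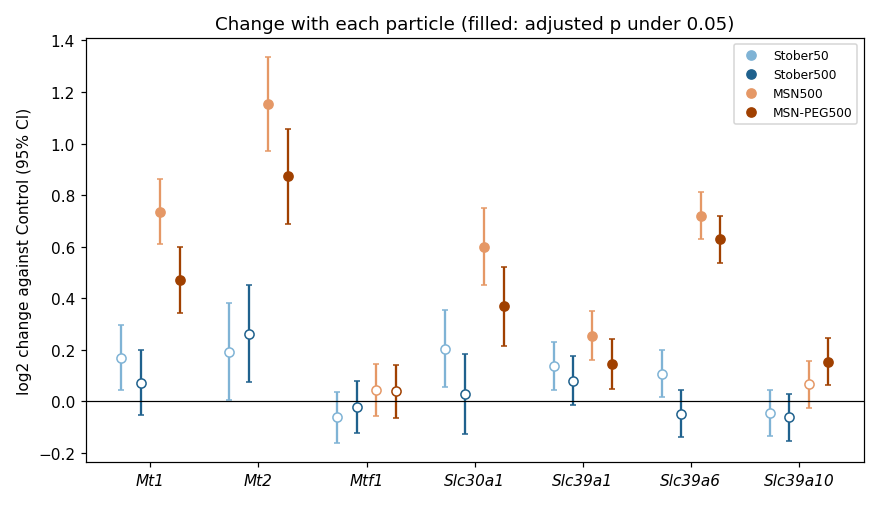
Log2 change against control (vertical axis) for each gene and particle, with 95% intervals; filled points have an adjusted p under 0.05. MSN500 reaches 1.15 for Mt2 and 0.72 for Slc39a6, all nonporous points are open, and Mtf1 lies near 0 for every particle.

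Ordered by level, the groups fell out differently among members. For Mt1 and Slc30a1 the order was control, Stober500, Stober50, MSN-PEG500 and MSN500, and for Mt2 the Stober groups changed places. Neighbours in the Mt1 order did not differ beyond their spread up to Stober50, and then MSN-PEG500 exceeded Stober50 (adjusted p = 0.000525) and MSN500 exceeded MSN-PEG500 (adjusted p = 0.00981). For Mt2 the first step past the test was MSN-PEG500 over Stober500 (adjusted p = 1.7e-05). For Slc30a1 the step from Stober50 to MSN-PEG500 did not pass (adjusted p = 0.0798, and 0.0458 without Stober50 replicate 1). In Slc39a6 the only step between neighbours past the test was from Stober50 to MSN-PEG500 (adjusted p = 3.79e-10). No neighbours differed for Slc39a1, Slc39a10 or Mtf1.

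Counted over the 7 members, 5 rose and 0 fell with MSN500 against control, where 42.9% of all genes tested were called and 21.6% rose. With MSN-PEG500 against control 6 rose and 0 fell, where 34.4% of all genes were called and 17.5% rose. The median log2 change over the members was 0.60 and 0.37, against -0.004 and -0.01 over all genes tested. With Stober50 0 of 7 were called against 7.57% of all genes, and DESeq2 and limma-voom also called 0. An unadjusted p under 0.05 was reached by 5 members, and by 2822 of all 12798 genes tested. The fit of only the 2 groups called 3 with Stober50, namely Mt1 (adjusted p = 0.0121), Slc30a1 (0.0431) and Slc39a1 (0.0415). Leaving out single libraries called 1 member with Stober50, Mt1 without control replicate 2 (adjusted p = 0.0454) and Slc39a1 without control replicate 3 (0.0486) or Stober50 replicate 2 (0.0405). With Stober500 0 were called against 0.00781% of all genes. An unadjusted p under 0.05 was reached by 1 member (Mt2) and by 1526 genes in all, and limma-voom called 0 members. DESeq2 also called 0, of the 4 members it gave an adjusted p, which did not include Mt2, Mtf1 or Slc30a1. These 4 comparisons share the 3 control libraries. The members' libraries did not overlap control for 5 genes in MSN500 and 6 in MSN-PEG500, all above, where 52.8% and 42.7% of all genes tested did not overlap. In Stober50 they did not overlap for 6, of which 4 were above and 2 below, where 27.4% of all genes did not, and in Stober500 for 0, where 15.9% did not.

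Between particles, 6 members were higher with MSN500 than with Stober500, where 39.4% of all genes were called and 19.9% rose, and 3 (Mt1, Mt2 and Slc30a1) were lower with MSN-PEG500 than with MSN500, where 8.02% were called and 3.92% fell. The second count was 0 without MSN500 replicate 1 and 1 without any 1 of the other 5 libraries, Mt1 being the gene that remained. Stober50 and Stober500 differed in 0 members by edgeR, where 2.24% of all genes were called. There 2 members, and 1795 genes in all, had an unadjusted p under 0.05. DESeq2 called 1 member (Slc39a6) and limma-voom 0, and Slc39a6 was called without Stober500 replicate 3 (adjusted p = 0.0242). For MSN500 over Stober500 Slc39a10 lost its call without Stober500 replicate 1 or 2 or MSN500 replicate 2 or 3. MSN500 exceeded Stober50 in 5 members, where 34% of all genes were called and 17.6% rose. Of these 5, Slc39a1 (adjusted p = 0.048) lost its call without Stober50 replicate 2 or 3 or MSN500 replicate 1 or 2. MSN-PEG500 exceeded Stober500 in 5 members, where 34.5% of all genes were called and 17.6% rose, and Stober50 in 4, where 33.1% were called and 17.4% rose. Over the 5 groups together 6 of the 7 members differed, all but Mtf1, where 49.7% of all genes did. The authors' deposited table, from DESeq2, called the same members in each comparison with control and between the mesoporous particles. It called Slc39a6 between the nonporous particles, and 4 members between MSN500 and Stober50, without Slc39a1.

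Per length the members spanned a wide range of levels. In control cells the deposited FPKM, which corrects counts for exonic length and library reads, was 250.1 ± 13.1 for Mt1, 60.6 ± 5.77 for Mt2 and 47.7 ± 1.80 for Slc39a1 (SD, n = 3 each). It was 26.9 ± 0.713 for Slc39a6, 15.2 ± 0.434 for Slc39a10, 5.15 ± 0.362 for Slc30a1 and 3.92 ± 0.120 for Mtf1. Mt1 was thus the most abundant member and the importer genes stood above the exporter and regulator genes. The order of the 7 FPKM means was unchanged with MSN500, where Mt1 reached 397 and Mt2 128 FPKM. The counts behind a member's value in a library ran from 494 to 4929, with a counting error of 4.50% to 1.42%.

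Among the other ZIP and ZnT genes tested, Slc39a2 and Slc39a8, both at low levels, had the largest log2 changes against control with both mesoporous particles. Of 12 ZIP genes tested, out of 14, 6 rose and 0 fell with MSN500 and 7 rose and 1 fell with MSN-PEG500, with a median log2 change of 0.19 and 0.14. Of all genes tested 42.9% were called in either direction with MSN500, near the ZIP share, and 34.4% with MSN-PEG500. Those that rose were 21.6% and 17.5% of all genes. Beside the members the ZIP genes called were Slc39a2, Slc39a7, Slc39a8 and Slc39a11, each up with both particles, and Slc39a13, which fell by 0.22 with MSN-PEG500 (adjusted p = 0.00442). Slc39a2, the gene of the importer ZIP2, had 12, 7 and 9 counts in control, 36, 55 and 67 in MSN500 and 72, 41 and 48 in MSN-PEG500. Its mesoporous libraries all exceeded its control libraries, from a low level, and the log2 change was 2.55 ± 0.26 (SE, adjusted p = 8.49e-09) and 2.68 ± 0.26 (adjusted p = 4.01e-09). Slc39a7, whose product ZIP7 releases zinc from the endoplasmic reticulum, had a log2 change of 0.21 ± 0.04 and 0.11 ± 0.04. Slc39a8, the gene of the zinc and manganese importer ZIP8, was low, at 12 to 23 counts per control library, with changes of 0.84 ± 0.22 and 0.80 ± 0.23.

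Of 6 ZnT genes tested, out of 10, 2 rose and 0 fell with each mesoporous particle. This share was no larger than that of all genes called in either direction (42.9% with MSN500 and 34.4% with MSN-PEG500). Rises alone made up 21.6% and 17.5% of all genes. Slc30a1 rose with both, Slc30a6 with MSN500 (log2 change 0.15 ± 0.06, adjusted p = 0.0459) and Slc30a7 with MSN-PEG500 (0.17 ± 0.04, adjusted p = 0.00335). ZnT6 and ZnT7, their products, load zinc into the early secretory pathway. The median log2 change of the ZnT genes was 0.12 with each mesoporous particle. Against control the smallest adjusted p of a ZIP or ZnT gene was 0.069 with Stober50 (Slc39a1) and 0.235 with Stober500 (Slc39a11), so none was called. The metallothionein genes Mt3 and Mt4 were looked up by symbol and were not among the genes with counts.

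**Figure D4:**
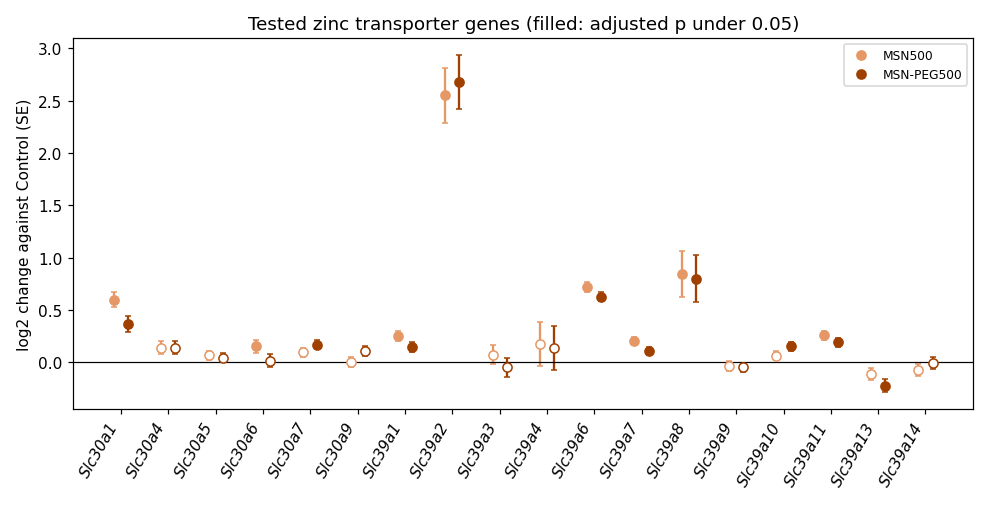
Log2 change against control (vertical axis) with error bars of 1 SE for the 18 tested ZnT (Slc30a) and ZIP (Slc39a) genes with MSN500 and MSN-PEG500; filled points have an adjusted p under 0.05. Slc39a2 lies highest at 2.55 and 2.68, and Slc39a13 is the only filled point below 0, at -0.22 with MSN-PEG500.

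Genes reported in the literature to depend on MTF-1 were listed under 10 symbols, of which 9 were tested and 4 were members. With MSN500 7 rose and 1 fell, and with MSN-PEG500 6 rose and 1 fell, with a median log2 change of 0.60 and 0.37, beside 42.9% of all genes called and 21.6% risen with MSN500 and 34.4% and 17.5% with MSN-PEG500. The members among those that rose were Mt1, Mt2 and Slc30a1 with both particles and, with MSN-PEG500, Slc39a10, whose known regulation by MTF-1 is repression. Both medians are the values of the member Slc30a1, so the list is not independent of the members. The others that rose were Sepw1, Ndrg1, Csrp1 and Slc40a1 with MSN500, and Ndrg1 and Slc40a1 with MSN-PEG500. Ndrg1 rose by 0.70 ± 0.20 with MSN500 (adjusted p = 0.0169) and 0.75 ± 0.20 with MSN-PEG500 (adjusted p = 0.0152). Its control libraries ran from 127 to 187 CPM. Csrp1 rose by 0.19 with MSN500 (adjusted p = 0.000226). Slc40a1, the gene of the iron exporter ferroportin, was at 3.07, 3.06 and 3.59 CPM in control, 12.02, 9.99 and 11.4 CPM in MSN500 and 7.87, 7.05 and 11.5 CPM in MSN-PEG500, with log2 changes of 1.78 ± 0.15 and 1.45 ± 0.16. Gclc, the gene of the catalytic subunit that starts glutathione synthesis, fell by 0.41 with MSN500 (SE 0.04, adjusted p = 8.1e-09). Sepw1, a selenoprotein gene, was the only gene of the list called with Stober50 (0.27 ± 0.05, adjusted p = 0.00217), and with Stober500 the smallest adjusted p in the list was 0.238 (Mt2).

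Copper genes were set beside these because metallothioneins also bind copper. All 8 of the list were tested, and 3 rose and 0 fell with each mesoporous particle, with a median log2 change of 0.06 for MSN500 and 0.16 for MSN-PEG500. These counts are close to the share of all genes called in either direction, 42.9% with MSN500 and 34.4% with MSN-PEG500. Of all genes 21.6% rose with MSN500 and 17.5% with MSN-PEG500. Slc31a2, which encodes the copper transporter CTR2, had a log2 change of 1.22 ± 0.07 with MSN500, 1.12 ± 0.07 with MSN-PEG500 and 0.49 ± 0.07 with Stober50 (adjusted p = 7.65e-05). Slc31a1, which encodes the copper importer CTR1, rose by 0.51 with MSN500 and 0.44 with MSN-PEG500. Cox17, a copper chaperone gene of mitochondria, rose by 0.23 with MSN500, and Atp7a, a copper pump gene, by 0.22 with MSN-PEG500. S100a8, a gene of the zinc-binding calprotectin complex, had group means of 0.88 to 1.36 CPM and was not called against control.

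Markers of cell identity also moved with the groups in which the zinc genes rose. Csf1r, the receptor of macrophage colony stimulating factor, fell by 0.47 with MSN500 (SE 0.04, adjusted p = 1.31e-10) and by 0.40 with MSN-PEG500 (SE 0.04, adjusted p = 3.34e-09). Cd68, a lysosomal glycoprotein gene of macrophages, rose by 0.47 with MSN500 (SE 0.05, adjusted p = 3.81e-09) and by 0.38 with MSN-PEG500 (SE 0.05, adjusted p = 2.1e-07). Of 8 macrophage markers, 1 (Cd68) rose and 4 fell with MSN500 and 1 (Cd68) rose and 5 fell with MSN-PEG500, beside 42.9% and 34.4% of all genes called. Pdgfrb fell by 1.01 and 1.24 from 1.40 CPM in control, and Ighm fell by 0.50 with MSN-PEG500. Cd68 had a log2 change of 0.17 ± 0.05 with Stober50 (adjusted p = 0.0268), and Ptprc, the CD45 gene, one of -0.13 ± 0.04 (adjusted p = 0.0458). The part of these shifts in the members' values was not tested.

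The genes most like each member were named by Pearson r of log2 CPM over the 15 libraries, among 12797 other genes, as a description without a test. The libraries share the large split between mesoporous and other groups, and genes are not independent. Mt1 was nearest to Atp6v1f (r = 0.983), a subunit gene of the proton pump of lysosomes, Uap1l1 (0.978) and Ctsz (0.975), a lysosomal protease gene. Mt2 was nearest to Arl5c (0.981), Basp1 (0.980) and Wwc1 (0.978), and r between Mt1 and Mt2 was 0.939. Slc39a6 had the closest neighbours, Cd200r1, an inhibitory receptor gene of myeloid cells (0.993), Tm4sf19 (0.993) and Car13, a carbonic anhydrase gene (0.993). For Slc30a1 they were Ppp2cb (0.957), Mras (0.953) and Pmpca (0.944), and for Slc39a1 Bod1 (0.960), Marcksl1 (0.926) and Nrros (0.906). Among the genes most like Slc39a10 were Spag9 (0.923) and Itpr2, an inositol trisphosphate receptor gene (0.916). Mtf1, which moved least, had the lowest values, with Rnf2 (0.829), Lig4 (0.828) and Lrrc1 (0.823).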

How the data were processed

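The 15 libraries were grouped by the treatment in their labels. The submitters' processing notes name the tools Novoalign 2.08.03, limma 3.28.21 and DESeq2 and the builds mm10 and GRCm38. The authors deposited whole-number counts of alignments with 1 base or more inside a gene, per the file headers and column descriptions. The deposited FPKM are these counts divided by exonic length and by the reads of the library, and served here only to compare levels between genes. DESeq2 gave the log2 ratios that the authors deposited, per the column descriptions. The deposited gene score is -10 log10 of an adjusted p, and the exon score treats in that way a Bonferroni-corrected chi-square p. No columns of other samples were present (0).

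Counts were tested with edgeR 4.0.16 (R 4.3.3) after filterByExpr with the 5 groups, in 1 robust quasi-likelihood fit of group means to all 15 libraries, with TMM factors of 0.974 to 1.02. The common biological coefficient of variation was 0.0418. Calls were made at a Benjamini-Hochberg adjusted p under 0.05 over all 12798 genes, for the 10 pairs of groups and for the 5 groups together. Logarithms of CPM used a prior count of 2. The pipeline was tested on simulated data. At the library totals, 3 counts, the limit a count of 0 allows, are 0.110 to 0.170 CPM, which covers counting error only. Replicates of a group differed by 2.19 to 6.81 per degree of freedom in a chi-square test, so none was a duplicate. Whether replicates were separate cultures is not in the labels, so the spread that p-values rest on may be technical.

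The members and gene lists were chosen with earlier results of these data known. Named beside the members were up to 3 list genes that rose and 3 that fell most with each mesoporous particle against control, every list gene called with a Stober particle against control, and the 3 genes most like each member, of which 1 is not reported here. Other genes of the transporter, MTF-1 and copper lists that were called against control are named outside that rule, after their values were seen. Positions come from the deposited annotation, with starts counted from 1, and have the same lowest position as GENCODE M21 for 5 of the 7 members. On the minus strand the lowest position is the end of the gene. For Slc39a10, on that strand, the highest position is 46892852 in GENCODE and 46854046 in the deposited annotation. Promoter sequences are from RefSeq. Alternatives were other normalizations (edgeR's RLE factors, upper quartile, library totals), no filter, DESeq2 1.42.0, limma-voom 3.58.1, fits of only the 2 groups, a replicate block and leaving out each library.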

Additional observations from a re-analysis of the deposited data

How the results depend on the processing

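Against control, no call of a member changed with MSN500 in any alternative run. For Stober50 the count of members called against control was 0 in the fit reported, 1 with the replicate block (Mt1, adjusted p = 0.0261), 3 with only the 2 groups fitted (Mt1, Slc30a1 and Slc39a1) and 0 to 1 when single libraries were left out. Between Stober50 and Stober500 it was 0, and 1 with the replicate block, 1 with DESeq2 and 0 to 1 when single libraries were left out. Between the mesoporous particles it was 3, against 1 with library totals and 0 to 1 when single libraries were left out. The replicate numbers did not pair the libraries, since deviations of same-numbered libraries correlated at -0.164 to 0.109 over 30 pairs of libraries and 7 of 15 libraries correlated best with their own number.

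Slc39a10 lost its call for MSN500 over Stober500 (adjusted p = 0.023) with upper quartile factors, with library totals and without Stober500 replicate 1 or 2 or MSN500 replicate 2 or 3, up to an adjusted p of 0.241. Slc39a1 lost it in that comparison with library totals (0.0516), and for MSN500 over Stober50 with DESeq2 (0.0685), with edgeR's RLE factors (0.0534) and in other settings. Directions turned only for values that had not been called. With library totals the log2 change turned to -0.0233 for Mtf1 and -0.00272 for Slc39a10 with MSN500 against control, to -0.0195 for Mtf1 with MSN-PEG500 against control, to 0.00386 for Mtf1 between the mesoporous particles and to -0.0310 for Slc39a1 between MSN-PEG500 and Stober50 (-0.0180 with upper quartile factors). Leaving out single libraries gave -0.0385 to 0.00913 for Mtf1 and -0.0351 to 0.135 for Slc30a1 with Stober500 against control, and -0.129 to 0.0645 for Mt2 and -0.0208 to 0.0613 for Slc39a10 between the Stober particles. It gave -0.0234 to 0.00454 for Mtf1 between the mesoporous particles, -0.0292 to 0.0358 for Slc39a1 between MSN-PEG500 and Stober50, and -0.0579 to 0.0951 for the log2 difference of the Mt2 share with Stober50. The cause was not tested. Of 557 values of single members under the other settings 528 kept direction and side of the threshold, as did 381 of 420 with a library left out. Over all genes, the count called with Stober500 against control was 1, but 91 with DESeq2, 9 with the replicate block, 4 with limma-voom, 3 with upper quartile factors, 2 with only the 2 groups, 90 without Stober500 replicate 3 and 2 to 6 without control replicate 1, 2 or 3 or Stober500 replicate 2. The 969 genes called with Stober50 against control were 412 to 631 without Stober50 replicate 1 or 2 or control replicate 1 or 2. The 287 between the Stober particles were 144 to 186 without Stober50 replicate 2 or 3 or Stober500 replicate 1 or 2, and the 1027 between the mesoporous particles were 420 to 651 without MSN500 replicate 1, 2 or 3 or MSN-PEG500 replicate 3.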
